A study of Mus musculus with 696 samples.

Results

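The genes described here are 10 transcription factors of the epidermis, Trp63, Grhl1, Grhl2, Grhl3, Klf5, Ovol1, Gata3, Tfap2a, Tfap2c and Zfp750. They were chosen by name, with earlier results of these data known, and all 10 were found among the 15652 genes of the count table. They were read in single keratinocytes of mouse tail skin that carry the tdTomato mark of an Lrig1 ancestor (Lrig1 GL cells). Lrig1 is expressed by stem cells of the upper hair follicle. The questions were how much of each factor the cells held around 2 consecutive wounds, how many cells held it, and how basal and differentiated cells differed.

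All mice were female, of the CBA C57BL/6 mixed strain, and carried Lrig1-EGFP-ires-CreERT2 and Rosa26-fl/STOP/fl-tdTomato. All received 1 topical dose of 4-hydroxytamoxifen on the tail at 6 to 8 weeks of age, before any wound, so the unwounded group carried the alleles and the drug as well. The groups were unwounded skin (0w, 179 cells), 1 week after a first full-thickness wound (1w pw1, 168 cells), 8 weeks after it, when the skin had closed (8w pw1, 172 cells), and 1 week after another wound on the same site (1w pw2, labelled as week 9, 177 cells). Mice of the later time points were also older and further past the dose, and no unwounded group of matching age is included. Age and time since the dose therefore cannot be told apart from the time point. Cells of a time point filled 2 plates. The methods describe repeated independent experiments, each on several mice, but the labels do not say which mice or which experiment a plate holds. The titles also carry a letter that both plates of a time point share and that differs between time points (C at 0w, G at 1w pw1, B at 8w pw1 and F at 1w pw2). What it marks is not given in the sources used here, so whatever it marks cannot be told apart from the time point. The sorted area held the wound bed together with follicles far from it, so near and distant cells cannot be told apart. Recombination follows Lrig1 expression, so the sort was for cells marked in that way.

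Each cell was its own Smart-seq2 library, and a plate sum held 12293182 to 19760820 estimated counts over 79 to 91 cells. The median cell held 132595 counts and 4470 genes. The keratinocyte label was checked against 8 markers (Krt5, Krt14, Krt10, Krt1, Cdh1, Perp, Dsp and Epcam). All 8 had counts in every plate, with a summed level of 11263 to 46340 CPM (counts relative to the library total). Markers of other cells were low. The 5 of 10 immune markers in the table summed to 0.422 to 53.2 CPM, highest in replicate 2 of 1w pw2, and the 5 of 6 fibroblast markers to 0.506 to 29.5 CPM, highest at 0w. Cd3e, a T cell gene, was at 0 in 4 plates and Pdgfra, a fibroblast gene, was at 0 in 4 plates. The 3 of 5 melanocyte markers summed to 1.66 to 7.91 CPM. A list of 15 genes that respond to tissue dissociation was highest at 0w, at 1306 and 1560 CPM, and lay between 538 and 1196 CPM in the other plates. The part of these lists in the results below was not tested. One cell of replicate 2 of 8w pw1 held 12.1% of that plate's counts. The median mitochondrial share was 22.7 and 30.7% at 0w, 17.9 and 23.9% at 1w pw1 and 18.2 and 22.1% at 8w pw1, and was lowest in the 1w pw2 plates (14.3 and 13.0%). Under a stricter filter, a minimum of 2000 genes and a mitochondrial share of 20% or less, the cells left numbered 37 and 9 at 0w, 43 and 31 at 1w pw1, 45 and 33 at 8w pw1 and 58 and 57 at 1w pw2.

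The epidermis renews from basal cells, which divide on the basement membrane, leave it and differentiate as they move outwards. The transcription factor p63, encoded by Trp63, sustains the basal state, and a set of later factors opens the genes of the cornified barrier. Grainyhead-like factors (Grhl1, Grhl2 and Grhl3) act on genes of cell junctions and the barrier, the zinc finger factors Klf5, Ovol1 and Zfp750 act on the switch between growth and differentiation, and the AP-2 factors (Tfap2a and Tfap2c) and Gata3 act in epidermal commitment and in the follicle. Factors of one family bind nearly the same letters in DNA, and Grhl and AP-2 proteins bind as dimers to palindromes.

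Promoter windows were taken from RefSeq on GRCm38.p6, from 250 bases before to 50 after a gene's start. Windows were matched for 4 of the 10 factors (Grhl1, Grhl3, Gata3 and Tfap2a). The windows of Grhl3 and of the outermost Grhl1 start are shown because these 2 factors differed most between duct-like and basal-like cells (below). The Grhl1 window is on the plus strand at chr12:24572037-24572336 and the Grhl3 window on the minus strand at chr4:135573583-135573882, each printed 5′ to 3′ along the gene. Capitals mark matches, on either strand, to 4 motifs. They are the grainyhead palindrome AACCGGTT, the AP-2 palindrome GCCNNNGGC, the letters AGATAA read by GATA factors, and GGGCGG, the GC box of SP and KLF factors. No capitals of 2 motifs overlap.
Grhl1: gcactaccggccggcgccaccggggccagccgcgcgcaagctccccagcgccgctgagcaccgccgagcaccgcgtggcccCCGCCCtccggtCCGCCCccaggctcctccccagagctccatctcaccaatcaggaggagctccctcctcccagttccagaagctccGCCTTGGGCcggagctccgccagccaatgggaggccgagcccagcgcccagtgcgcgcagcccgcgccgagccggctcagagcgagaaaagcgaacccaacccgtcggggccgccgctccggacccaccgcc
Grhl3: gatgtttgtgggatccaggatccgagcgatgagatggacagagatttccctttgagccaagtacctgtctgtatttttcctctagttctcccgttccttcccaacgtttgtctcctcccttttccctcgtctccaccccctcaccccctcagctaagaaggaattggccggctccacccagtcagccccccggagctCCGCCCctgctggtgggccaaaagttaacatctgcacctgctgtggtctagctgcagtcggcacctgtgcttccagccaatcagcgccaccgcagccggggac
The Grhl1 window held 1 AP-2 match, at base 169, and 2 GC box matches, at bases 82 and 94. The Grhl3 window held 1 GC box match, at base 198. Neither window held the grainyhead or the GATA letters, nor did the windows of Gata3 and Tfap2a. Among 32851 mouse promoter windows of the same length, 0.146% held AACCGGTT, 16.6% held GCCNNNGGC, 11.2% held AGATAA and 35.7% held GGGCGG. The Gata3 window held 3 AP-2 matches and 2 GC boxes. These are matches of letters, not binding sites.

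Levels were compared between genes per kilobase of the longest coding transcript, on the summed counts of each plate. Trp63 was highest, with a median over the 8 plates of 61 CPM per kilobase (range 31.7 to 73.6), and Zfp750 followed at 57.3 (13.7 to 77.6). Tfap2a stood at 23.9 (19.5 to 27.6), Grhl1 at 23.3 (15.3 to 43.9), Gata3 at 21.4 (8.46 to 31.3) and Klf5 at 12.8 (7.85 to 34.7). The lowest were Ovol1 at 6.77 (2.12 to 21.3), Tfap2c at 6.41 (2.62 to 17.2), Grhl2 at 6.28 (4.62 to 9.80) and Grhl3 at 5.88 CPM per kilobase (2.18 to 15.3). Neighbours in this order overlapped in every case. Trp63 lay above Tfap2a in all 8 plates without overlap, whereas its range overlapped those of Grhl1 and Klf5.

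The genes lie on 9 chromosomes of GRCm38, with Gata3 and Tfap2c both on chromosome 2. Trp63 spans chr16:25683763-25892102 on the plus strand and has 8 coding transcripts, which the gene table does not separate, so the ΔN and TA forms of p63 are summed. Grhl1 spans chr12:24572283-24617391 (plus), Grhl2 chr15:37233036-37363569 (plus) and Grhl3 chr4:135541888-135573630 (minus). Klf5 spans chr14:99298691-99315036 (plus), Ovol1 chr19:5549136-5560646 (minus) and Zfp750 chr11:121510978-121519333 (minus). Gata3 spans chr2:9857078-9890034 (minus), Tfap2a chr13:40715302-40738376 (minus) and Tfap2c chr2:172549593-172558622 (plus). Exons of 4 factors overlap exons of genes on the opposite strand, 1 gene each for Grhl2 and Gata3, 2 for Ovol1 and 3 for Tfap2a. This protocol keeps no strand, so reads could be shared between them.

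A count was present in most cells for some factors and in few for others. Tfap2a had a count in 87.5% of the 696 cells (95% exact Clopper-Pearson interval 84.8 to 89.9%) and Trp63 in 85.9% (83.1 to 88.4%). Zfp750 was found in 65.1%, Grhl2 in 61.6%, Klf5 in 60.5%, Gata3 in 58.9%, Grhl1 in 56.6% and Tfap2c in 51.0% of cells. Ovol1 (34.5%) and Grhl3 (32.3%, 28.9 to 35.9%) were found in the fewest cells. For comparison, Col1a1, a fibroblast collagen gene that keratinocytes should lack, had a count in 1.58% of cells (0.792 to 2.81%), and Ptprc, an immune gene, in 3.88%. Intervals cover counting error only, since these libraries have no molecular identifiers. The order by share is not that by level, and Tfap2a, with the largest of these shares, held less RNA per kilobase than Zfp750 in 7 of the 8 plates.

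Depth sets such shares, so the 560 cells with at least 50000 counts were thinned to that number. This left 77 and 67 cells at 0w, 73 and 74 at 1w pw1, 69 and 50 at 8w pw1 and 75 and 75 at 1w pw2. The thinned counts include mitochondrial ones, so depth in other genes was not made equal. The median mitochondrial share before thinning was 30.7% in replicate 2 of 0w and 13.0% in replicate 2 of 1w pw2. Zfp750 was then found in 29.9 and 38.8% of cells at 0w, 87.7 and 93.2% at 1w pw1, 53.6 and 44.0% at 8w pw1 and 89.3 and 90.7% at 1w pw2. Both plates taken 1 week after a wound lay above all 4 of the other plates, after each wound. Grhl1 showed the same order, at 26.0 and 31.3%, 69.9 and 75.7%, 39.1 and 44.0%, and 68.0 and 60%. Klf5 stood at 36.4 and 34.3%, 68.5 and 74.3%, 55.1 and 34.0%, and 61.3 and 58.7% over the same plates, again with no overlap between the 1 week plates and the others. The share with Trp63 moved less, from 75.3 to 90.9%, and that with Tfap2a least, from 70.0 to 82.1%. A median cell held a count of 5 of the 10 factors in each 0w plate, 8 in each 1w pw1 plate, 5 and 4 at 8w pw1 and 7 in each 1w pw2 plate (unthinned), and 32 of 696 cells held all 10. Thinned, the medians were 4 in each 0w plate, 6 and 7 after the first wound, 5 and 4 at 8w pw1 and 6 in each 1w pw2 plate, and 2 of 560 cells held all 10. Shares were not tested, since the smallest two-sided p that exact permutation of 2 plates in each group allows is 0.333. How many of all genes show the same order of plates by share was not counted, so these factors cannot be said to stand out in it.

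Levels by time point are plate sums scaled to CPM with edgeR's TMM factors, with 2 plates per group. Since the labels do not tie each plate to its own mice, p-values measure the spread between plates, which may be technical. In such sums fewer cells of a type and less RNA per cell cannot be told apart. The share of differentiated-like cells (defined below) was 11.4 and 6.59% at 0w, 38.2 and 41.8% at 1w pw1, 4.71 and 8.05% at 8w pw1 and 25.6 and 35.2% at 1w pw2. That of duct-like cells was 15.9 and 16.5%, 37.1 and 38.0%, 28.2 and 21.8%, and 45.3 and 45.1% over the same time points, and so was above 0w at 8w pw1 as well. Basal-like cells made up 42.0 and 36.3%, 15.7 and 7.59%, 49.4 and 37.9%, and 17.4 and 13.2%. Sebaceous-like cells made up 15.9 and 25.3% at 0w, 9.41 and 17.2% at 8w pw1 and 2.20 to 4.65% in the 1 week plates. The part of these shares in the levels below was not tested. In replicate 2 of 8w pw1 a single cell held 46.5% of the Klf5 counts, 43.4% of Grhl3, 39.7% of Grhl2, 39.1% of Grhl1, 33.5% of Tfap2a and 33.1% of Zfp750.

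**Figure D1:**
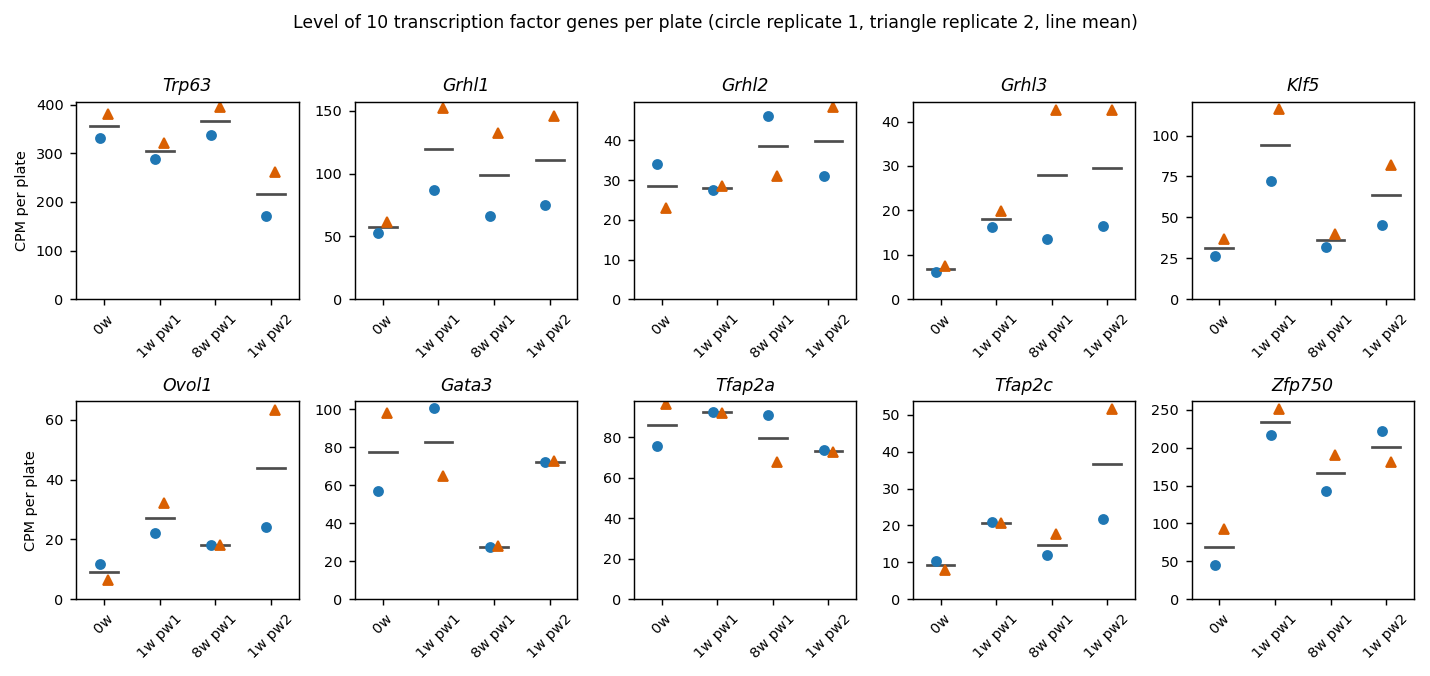
Level of each factor (CPM of the plate sum, TMM scaled) in the 2 plates of each time point, 1 point per plate. Zfp750 stood at 44.4 and 93.2 CPM at 0w and at 217 and 251 CPM at 1w pw1 without overlap, and Tfap2a lay between 68.0 and 96.3 CPM.

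Trp63, the factor of the basal state, stood at 332 and 379.9 CPM at 0w, 287 and 322 at 1w pw1, 338 and 395 at 8w pw1 and 170.2 and 261 at 1w pw2. The 1w pw2 plates were the 2 lowest. At 1w pw2 against 0w the log2 fold change was -0.72 (SE 0.43, adjusted p = 0.536 by edgeR's quasi-likelihood test with Benjamini-Hochberg adjustment over 13853 genes), so the drop did not pass the test.

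Zfp750, a factor of terminal differentiation that acts downstream of p63, stood at 44.4 and 93.2 CPM at 0w, 217 and 251 at 1w pw1, 142.6 and 189.8 at 8w pw1 and 222 and 180.7 at 1w pw2. Its 0w plates lay below all 6 plates taken after a wound. The log2 fold change at 1w pw1 was 1.77 (SE 0.50, unadjusted p = 0.00511, adjusted p = 0.177 by edgeR), at 8w pw1 1.27 (SE 0.49) and at 1w pw2 1.55 (SE 0.49), and none passed the edgeR threshold of an adjusted p of 0.05 with a fold above 2. In the cells that pass the stricter filter these values were 2.05, 1.73 and 1.62, again with no call. Leaving out 1 plate at a time, they lay between 1.29 and 2.39, 0.77 and 1.88, and 1.08 and 2.16. DESeq2, a different count test, called the 1w pw1 difference (adjusted p = 0.0306).

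Klf5, a zinc finger factor of proliferating epithelia, stood at 26.3 and 36.8 CPM at 0w, 72.3 and 116.2 at 1w pw1, 31.9 and 40.1 at 8w pw1 and 45.5 and 81.9 at 1w pw2. The 4 plates taken 1 week after a wound were higher than the 4 others. At 1w pw1 against 0w the log2 fold change was 1.58 (SE 0.52, adjusted p = 0.243 by edgeR). Ovol1, a repressor that acts as cells leave the cycle, stood at 11.7 and 6.31 CPM, 22.1 and 32.2, 18.1 and 18.1, and 24.2 and 63.3 over the same time points, and its 0w plates were the 2 lowest. Against 0w it was higher by 1.59 on the log2 scale at 1w pw1 (SE 0.63, adjusted p = 0.355 by edgeR) and by 2.28 at 1w pw2 (SE 0.65, adjusted p = 0.190 by edgeR), and DESeq2 called the latter (adjusted p = 0.0176). Without replicate 2 of 1w pw2 that difference was 1.46, and without other plates it was up to 2.80. A single cell held 46.2% of the Ovol1 counts in replicate 2 of 0w and 58.8% of those in replicate 2 of 8w pw1.

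Among the grainyhead-like factors, Grhl1, which acts on desmosomal cadherin genes, stood at 53.1 and 61.2 CPM at 0w, 86.7 and 152.3 at 1w pw1, 65.9 and 132 at 8w pw1 and 75.2 and 146 at 1w pw2. The 0w plates were the 2 lowest, but the plates of each later group lay far apart, and no contrast with 0w passed (log2 fold changes of 1.07, 0.79 and 0.95, adjusted p = 0.518, 0.849 and 0.528 by edgeR). Grhl3, which acts in barrier formation and epidermal closure, stood at 6.07 and 7.55 CPM, 16.2 and 19.9, 13.5 and 42.7, and 16.6 and 42.6. Its 0w plates were also lowest, and its largest log2 fold change was 2.12 (SE 0.72, adjusted p = 0.267 by edgeR) at 1w pw2. That value was 1.30 without replicate 2 of 1w pw2, and the Grhl3 value at 8w pw1 was 0.92 without replicate 2 of 8w pw1 and 2.63 without replicate 1. Grhl2, which acts on epithelial junction genes such as Cdh1, stood at 34.0 and 22.9 CPM, 27.5 and 28.6, 46.1 and 31.1, and 31.1 and 48.5. Its groups overlapped in each contrast with 0w, and its log2 fold changes there lay between -0.02 and 0.48.

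The AP-2 factor Tfap2a, which acts early in surface ectoderm and in keratinocytes, stood at 75.7 and 96.3 CPM at 0w, 92.4 and 92.0 at 1w pw1, 90.9 and 68.0 at 8w pw1 and 73.6 and 72.9 at 1w pw2. It had the narrowest range of the 10 factors, 1.42-fold from the lowest to the highest plate. Its paralog Tfap2c stood at 10.4 and 7.82 CPM, 20.8 and 20.7, 11.9 and 17.6, and 21.8 and 51.5, a 6.58-fold range. At 1w pw2 against 0w the Tfap2c difference was 2.0 on the log2 scale (SE 0.62, adjusted p = 0.227 by edgeR, 0.0404 by DESeq2), and 1.28 without replicate 2 of 1w pw2. The 0w plates were lowest for Tfap2c and not for Tfap2a, and whether the 2 AP-2 factors differ over time was not tested.

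Gata3, which acts in the inner root sheath of the follicle and in barrier lipid synthesis, differed from the others. It stood at 56.7 and 98.3 CPM at 0w, 100.6 and 65.0 at 1w pw1, 27.2 and 28.0 at 8w pw1 and 72.5 and 72.6 at 1w pw2. Both 8w pw1 plates were lower than all 6 others. The log2 fold change was -1.49 against 0w (SE 0.49, adjusted p = 0.685 by edgeR), -1.58 against 1w pw1 (SE 0.49, adjusted p = 0.268), and 1.39 for 1w pw2 against 8w pw1 (SE 0.49, adjusted p = 0.524). A single cell held 35.8% of the Gata3 counts in replicate 1 of 0w.

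In counts, 0 of the 10 factors were called by edgeR in any of the 7 contrasts of time points. All 10 passed the filter on low counts. Over all 13853 genes tested, 0.527% were called at 1w pw1 against 0w, 0% at 8w pw1 against 0w, 0.267% at 1w pw2 against 0w, 0.115% at 8w pw1 against 1w pw1, 0.00722% at 1w pw2 against 8w pw1, 0% at 1w pw2 against 1w pw1 and 0% for the difference between the healings. That last contrast subtracts the first step (0w to 1w pw1) from the step after the new wound (8w pw1 to 1w pw2). An unadjusted p below 0.05 was found for 3 factors at 1w pw1 against 0w (Klf5, Ovol1 and Zfp750), beside 11.5% of all genes. It was found for 3 at 8w pw1 against 0w (Gata3, Grhl3 and Zfp750), beside 6.48%, and for 4 at 1w pw2 against 0w (Grhl3, Ovol1, Tfap2c and Zfp750), beside 12.6%. At 8w pw1 against 1w pw1 there were 2 (Gata3 and Klf5), beside 11.1%, and for 1w pw2 against 8w pw1 there was 1 (Gata3), beside 7.94% and so near the share of all genes. The last 2 contrasts had 0, beside 6.01 and 5.34%. With the replicate number as a block edgeR again called 0 factors, and over all genes it called 236, 3, 96, 110, 8, 0 and 3 in the 7 contrasts in the order above, against 73, 0, 37, 16, 1, 0 and 0 without it. DESeq2 called Zfp750 at 1w pw1 against 0w, where it called 5.28% of all genes, and Ovol1 and Tfap2c at 1w pw2 against 0w, where it called 4.97%.

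By plates alone, with no test, 6 factors (Grhl1, Grhl3, Klf5, Ovol1, Tfap2c and Zfp750) were higher in both 1w pw1 plates than in both 0w plates, where 23% of all genes were, and 1 (Trp63) was lower, where 22.1% were. The same 6 were higher at 1w pw2 than at 0w (21.5% of all genes) and 2 (Trp63 and Tfap2a) were lower (19.4%). At 8w pw1, 5 of the 6 were higher than at 0w, all but Klf5 (17.8% of all genes), and Gata3 was lower (15.6%). These 3 comparisons share the 0w plates. From 1w pw1 to 8w pw1, 6 factors (Klf5, Ovol1, Gata3, Tfap2a, Tfap2c and Zfp750) were lower in both plates (20.3% of all genes) and 2 (Trp63 and Grhl2) were higher (21.5%). From 8w pw1 to 1w pw2, 4 (Klf5, Ovol1, Gata3 and Tfap2c) were higher (16.8%) and 1 (Trp63) was lower (16.3%). Between the plates at 1w pw2 and 1w pw1, 2 (Grhl2 and Tfap2c) were higher (19.9%) and 2 (Trp63 and Tfap2a) lower (17.4%).

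To compare basal with differentiated cells, each cell was put in the class whose marker list had the highest mean z-score: basal-like (192 cells, with Krt5, Krt14 and integrin genes), differentiated-like (148, with Krt1 and Krt10), sebaceous-like (70, with Scd1), duct-like of the upper follicle (215, with Krt79 and Gata6) and bulge-like (71, with Cd34 and Lgr5). The genes in brackets are members of the marker lists, and none of the 10 factors is in these lists. The median level of Krt5 over plates was 962 CPM in the basal-like and 62.1 CPM in the differentiated-like class, and that of Krt10 178.1 and 32042 CPM. A class cut from a score is a range rather than a type, and 64 cells (9.20%) lay within 0.1 of a border. Of the 71 bulge-like cells 18 did. The median cell held no Cd34 in any class, the bulge-like class included, so that class is not one of Cd34-positive cells. Counts were summed by plate and class, and classes of the same plate were compared, for plates with at least 5 cells in both. Median depth was 120246 counts in basal-like and 155616 in differentiated-like cells.

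Grhl1 was higher in the differentiated-like than in the basal-like cells of all 7 plates compared. In basal-like cells it stood at 19.8 and 10.9 CPM at 0w, 28.9 and 74.4 at 1w pw1, 1.01 in replicate 2 of 8w pw1 and 12.4 and 18.2 at 1w pw2. In differentiated-like cells it stood at 163 and 174.8, 114 and 91.9, 80.2, and 76.9 and 166 CPM in the same order. No differentiated-like level reached down to a basal-like one. The log2 fold change was 2.96 (SE 0.65, adjusted p = 0.0351 by edgeR's quasi-likelihood test with Benjamini-Hochberg adjustment over 9123 genes), which passed the test. By edgeR, Grhl1 was the 1 factor of 10 called, where 2.41% of all genes were (1.01% higher and 1.4% lower), and 5 factors had an unadjusted p below 0.05, beside 15% of all genes. The call was lost in 5 of 7 fits that left out a plate (either 0w plate, replicate 1 of 1w pw1 or either 1w pw2 plate), where its adjusted p reached 0.0958 while the log2 fold change stayed between 2.55 and 3.41, and with cells thinned to 50000 counts.

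Zfp750 was also higher in differentiated-like cells in 7 of 7 plates. Its levels there were 93.4 and 62.6 CPM at 0w, 245 and 249 at 1w pw1, 247 in replicate 2 of 8w pw1 and 279 and 237 at 1w pw2. In basal-like cells they were 5.94 and 9.32, 94.8 and 239.7, 34.3, and 66.2 and 113 CPM. The log2 fold change of 2.0 (SE 0.50) had an adjusted p of 0.0579 by edgeR, just above the threshold and so not called, and was called by DESeq2 (adjusted p = 0.00189) and with every cell scaled equally. The gap between classes was wide at 0w and narrow in replicate 2 of 1w pw1, where the basal-like sum held 6 cells.

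Ovol1 was higher in differentiated-like cells in 6 of 7 plates, with a median of 35.3 CPM (13.0 to 87.1) against 7.76 CPM (1.40 to 41.3) in basal-like cells (log2 fold change 2.59, SE 0.80, adjusted p = 0.13 by edgeR, 0.00148 by DESeq2). Tfap2c was higher in 7 of 7, at 46.0 CPM (28.1 to 58.5) against 14.9 (5.36 to 37.1) (log2 fold change 1.45, SE 0.47, adjusted p = 0.145 by edgeR, 0.00746 by DESeq2). Grhl3 was higher in 5 of 7, at 21.6 CPM (1.40 to 47.6) against 4.40 (0.699 to 20.8) (log2 fold change 1.86, SE 0.91, adjusted p = 0.375). All 3 thus pointed the way of Grhl1 without a call in the main edgeR fit. With classes cut at the ends of the marker or of the keratin difference, edgeR called Grhl3 and Ovol1 but not Tfap2c. Those fits called 1013 of 9662 and 837 of 9790 genes. DESeq2 called Grhl1, Ovol1, Tfap2c and Zfp750 in this contrast, where it called 11.9% of all genes.

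Trp63 pointed the other way. Its median was 218 CPM (145.1 to 326) in differentiated-like and 409 CPM (292 to 586) in basal-like cells, and it was lower in 6 of 7 plates, with overlap between the classes. The log2 fold change of -0.81 (SE 0.29, adjusted p = 0.196 by edgeR) did not pass. Trp63 was called by edgeR with every cell scaled equally (275 of 8625 genes called) and with the marker cut (1013 of 9662). Klf5 (log2 fold change 0.56, SE 0.44), Gata3 (0.45, SE 0.57), Grhl2 (-0.38, SE 0.44) and Tfap2a (0.02, SE 0.36) had adjusted p-values of 0.635 to 0.989. Gata3 was lower in differentiated-like than in basal-like cells in both 0w plates (18.8 and 15.1 against 25.5 and 80.1 CPM) and higher in both 1w pw1 plates (146.9 and 98.6 against 48.1 and 27.3 CPM). For Gata3 the direction also depended on how the classes were cut, and for Tfap2a on the setting in 7 fits. Tfap2a stood at 49.4 to 84.4 CPM in differentiated-like cells and 51.6 to 104 CPM in basal-like cells.

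**Figure D2:**
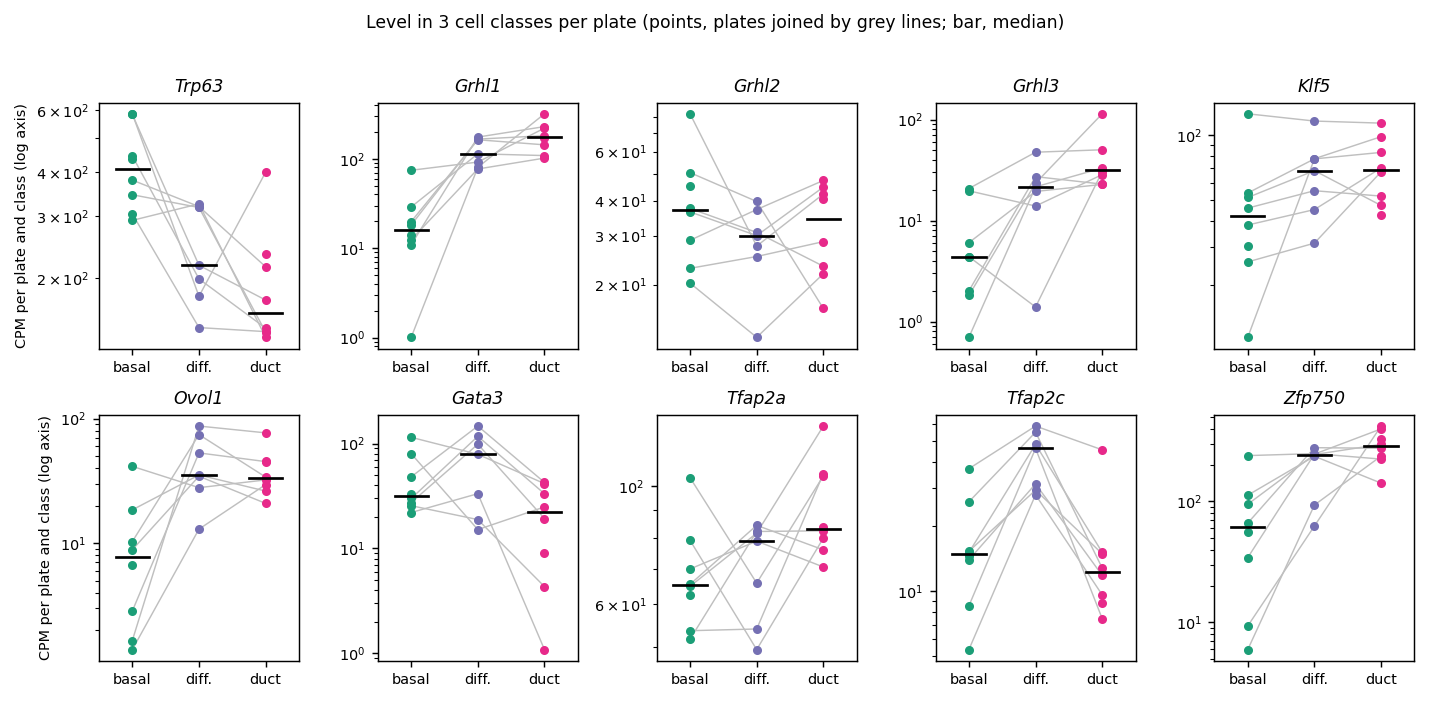
Level of each factor (CPM, TMM scaled) summed by plate and cell class, 1 point per plate with at least 5 cells of the class, and the median over plates. Grhl1 in differentiated-like cells (76.9 to 175 CPM) lay above basal-like cells (1.01 to 74.4 CPM), and Tfap2a overlapped between the 2 classes.

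The duct-like class, cells of the upper follicle that also carried Krt10, differed from basal-like cells in more factors. This comparison was added after the data were seen, as were those of the other classes below. Over 8 plates 5 factors were called, Grhl1, Grhl3, Ovol1 and Zfp750 higher and Trp63 lower, where 10.1% of all 9930 genes were (5.68% higher, 4.45% lower). Grhl1 stood at 102 to 319 CPM in duct-like cells (median 176.7) against 1.01 to 74.4 CPM in basal-like cells (log2 fold change 3.39, SE 0.60, adjusted p = 0.00289 by edgeR). Grhl3 stood at 22.8 to 114 CPM (median 31.5) against 0.699 to 20.8 CPM (log2 fold change 2.93, SE 0.66, adjusted p = 0.0124). For both, the lowest duct-like plate lay above the highest basal-like plate.

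Zfp750 in duct-like cells stood at 237 and 421 CPM at 0w, 297 and 224 at 1w pw1, 329 and 399 at 8w pw1 and 276 and 141.9 at 1w pw2. It was higher than in basal-like cells in 7 of 8 plates, the exception being replicate 2 of 1w pw1 (log2 fold change 2.55, SE 0.65, adjusted p = 0.0251 by edgeR). Ovol1 was higher in 7 of 8 (2.40, SE 0.71, adjusted p = 0.0495), and Trp63 was lower in 8 of 8 (-1.13, SE 0.21, adjusted p = 0.0045), at 136 to 400.4 CPM against 292 to 586. Grhl1, Grhl3 and Trp63 were called in every fit that left out a plate, whereas Ovol1 was lost in 7 of 8 (log2 fold change 1.99 to 2.81) and Zfp750 in 3 (2.12 to 2.93, lost without replicate 1 of 1w pw2, replicate 1 of 8w pw1 or replicate 2 of 8w pw1).

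Gata3 in duct-like cells stood at 4.32 and 24.9 CPM at 0w, 42.6 and 19.2 at 1w pw1, 9.05 and 1.08 at 8w pw1 and 33.2 and 41.5 at 1w pw2. It was lower than in basal-like cells in 7 of 8 plates (log2 fold change -1.45, SE 0.50, adjusted p = 0.0867 by edgeR, 0.00626 by DESeq2, which called 20.9% of all genes in that contrast). Against the duct-like class, differentiated-like cells had more Gata3 (log2 fold change 1.84, SE 0.59, adjusted p = 0.148) and more Tfap2c (1.54, SE 0.45, adjusted p = 0.106), and both were called by DESeq2 only, which called 9.74% of all genes. By edgeR 0 of 10 factors were called between these 2 classes, where 2.26% of all 9376 genes were. Gata3 and Tfap2c had the largest differences of the 10.

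In sebaceous-like cells, compared in the 4 plates of 0w and 8w pw1, 0 of 9 factors tested were called by edgeR, where 2.58% of all genes were, and 0 had an adjusted p below 0.29. Klf5 was at 0 to 11.2 CPM there and at 11.4 to 38.1 CPM in the basal-like cells of the same plates, without overlap (log2 fold change -3.30, SE 1.47, adjusted p = 0.356 by edgeR, 0.0113 by DESeq2, which called 10.7% of all genes). Tfap2a was higher than in basal-like cells in 4 of 4 plates, at 71.2 to 133 CPM. In bulge-like cells 0 of 8 factors tested were called, where 0.0229% of all genes were. Gata3 was higher in 7 of 7 plates, at 60.1 to 321 CPM (log2 fold change 2.09, SE 0.45, unadjusted p = 0.000439, adjusted p = 0.204 by edgeR, 7.41e-05 by DESeq2, which called 5.18% of all genes). Grhl3 and Ovol1 did not pass the filter there, and their median over the 7 bulge-like plates was 0 CPM.

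**Figure D3:**
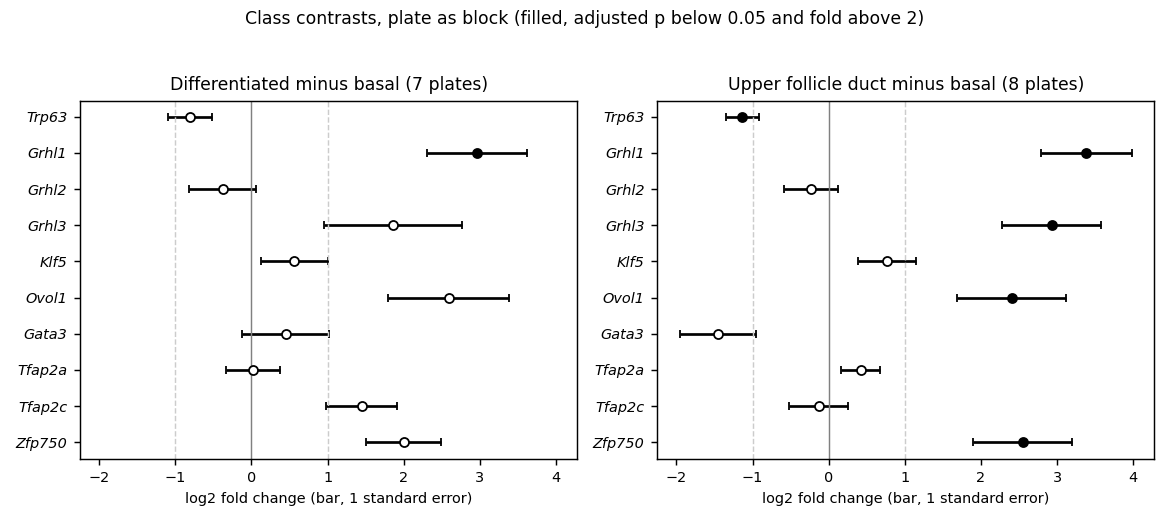
Log2 fold change of each factor between cell classes of the same plate, with its standard error, against the basal-like class. Grhl1 stood at 2.96 in the differentiated-like and 3.39 in the duct-like class, and Trp63 at -0.81 and -1.13.

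Shares of cells with a count, thinned to 50000 counts, are given over all plates. They mix class with time, since 145 of the 192 basal-like cells came from 0w and 8w pw1 and 121 of the 148 differentiated-like cells from the plates taken 1 week after a wound. Zfp750 was found in 31.5% of basal-like, 90.7% of differentiated-like, 95.5% of duct-like, 36.7% of sebaceous-like and 45.8% of bulge-like cells. By plate it was found in 4.76 to 83.3% of basal-like, 62.5 to 100% of differentiated-like (3 to 32 cells a plate) and 84.6 to 100% of duct-like cells. In 0w plates the basal-like shares were 9.38 and 4.76% and the differentiated-like shares 62.5 and 75% (8 and 4 cells). At 1w pw1 they were 64.3 and 83.3% against 87.5 and 96.7%, a smaller gap. Grhl1 was found in 20.5, 67.4, 79.1, 40.0 and 25.0% in the same order, and Grhl3 in 11, 36.4, 49.7, 3.33 and 2.08%. Ovol1 was found in 13.7, 45.7, 37.3, 6.67 and 6.25%.

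Tfap2c and Gata3 had unlike shares in differentiated-like and duct-like cells over all plates. Tfap2c was found in 30.8% of basal-like, 66.7% of differentiated-like and 38.4% of duct-like cells, and Gata3 in 43.8, 69.8 and 31.6%, with 76.7% of sebaceous-like and 62.5% of bulge-like cells. By plate the Gata3 share was 0 to 85% in differentiated-like and 23.8 to 75% in basal-like cells, which overlapped. Klf5 was found in 47.9, 68.2 and 64.4% of basal-like, differentiated-like and duct-like cells and in 15% of sebaceous-like cells. Trp63 was found in 97.3, 81.4 and 72.3%, Grhl2 in 56.8, 45.7 and 49.2% and Tfap2a in 74.0, 70.5 and 79.1%. A count of Trp63 was thus present in most cells of every class. Cells pooled over plates are not replicates, and these shares are a description.

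**Figure D4:**
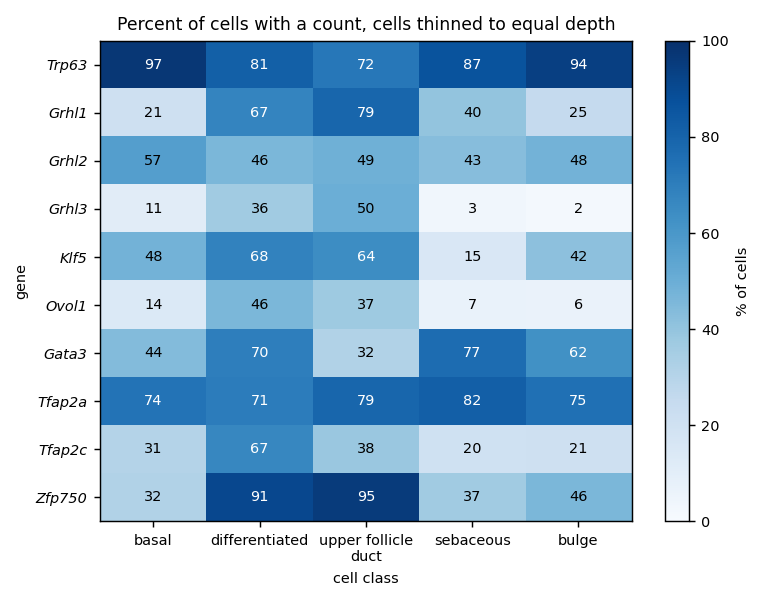
Percent of cells with a count of each factor, by class, in cells thinned to 50000 counts. Exact 95% intervals of such shares cover counting error only. Zfp750 was found in 90.7% of differentiated-like and 95.5% of duct-like cells against 31.5% of basal-like cells, over all plates, and basal-like cells came mostly from 0w and 8w pw1 (145 of 192) and differentiated-like cells from the 1 week plates (121 of 148).

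The time points were then compared within a class. In basal-like cells Zfp750 stood at 5.94 and 9.32 CPM at 0w, 94.8 and 239.7 at 1w pw1, 55.9 and 34.3 at 8w pw1 and 66.2 and 113 at 1w pw2. Its 0w plates lay below all others. At 1w pw1 the log2 fold change was 4.45 (SE 0.86, adjusted p = 0.0428 by edgeR's quasi-likelihood test), and Zfp750 was the 1 factor of 10 called, where 0.605% of all 11904 genes were (0.47% higher). At 8w pw1 it was 2.54 (SE 0.79, adjusted p = 1) and at 1w pw2 3.48 (SE 0.82, adjusted p = 0.173), and 0 factors were called, where 0% and 0.202% of all genes were. The share of basal-like cells with Zfp750 in thinned counts was 9.38 and 4.76% at 0w, 64.3 and 83.3% at 1w pw1, 30.6 and 12.5% at 8w pw1 and 69.2 and 75.0% at 1w pw2.

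This call is not firm. The basal-like sums at 1w pw1 held 14 and 6 cells, against 37 and 33 at 0w. The call was lost without either 0w plate (adjusted p = 0.301 and 0.219) or without replicate 2 of 1w pw1 (0.203), with every cell scaled equally (0.0744), and under 3 other cuts of the classes (0.167 to 0.422 by edgeR), while the log2 fold change lay between 3.46 and 4.77 in all these fits. Basal-like cells were deeper at 1w pw1 (median 359526 and 236755 counts) than at 0w (137338 and 73479). Krt10 had a count in 43.2 and 48.5% of basal-like cells at 0w and 71.4 and 66.7% at 1w pw1. Thinned to 50000 counts these shares were 37.5 and 57.1% against 57.1 and 50%, which overlapped. The median score of the differentiated marker list in basal-like cells was -0.55 and -0.71 at 0w and -0.17 and -0.17 at 1w pw1, and its part in the Zfp750 level was not tested.

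Among the other factors in basal-like cells at 1w pw1 against 0w, Ovol1 (log2 fold change 3.51, SE 1.40, adjusted p = 0.362 by edgeR) and Klf5 (2.26, SE 0.83, adjusted p = 0.312) had an unadjusted p below 0.05, beside 11.8% of all genes, and neither passed. The Ovol1 levels were 2.85 and 1.40 CPM at 0w and 8.85 and 41.3 CPM at 1w pw1, the last from 6 cells, without which plate the log2 fold change was 2.04. Klf5 stood at 25.7 and 11.4 CPM at 0w and 53.8 and 126 CPM at 1w pw1, and its log2 fold change lay between 1.54 and 2.95 when 1 plate was left out. Trp63 in basal-like cells had log2 fold changes against 0w of -0.18 (1w pw1), 0.13 (8w pw1) and -0.71 (1w pw2), with an SE of 0.56 each. In basal-like cells DESeq2 called Zfp750 at 1w pw1, where it called 4.97% of all genes, and at 1w pw2, where it called 2.81%.

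Within differentiated-like cells 0 factors were called by edgeR at 1w pw1 or 1w pw2 against 0w, where 0.0996% and 0.0634% of all 11046 genes were. The 8w pw1 group had 1 plate here, so its test against 0w is not used. In the fit it was assumed to vary like the others. Gata3 stood at 18.8 and 15.1 CPM at 0w, 146.9 and 98.6 at 1w pw1, 33.3 in the 1 plate of 8w pw1 and 117 and 79.0 at 1w pw2. Its 0w plates were the lowest (log2 fold change at 1w pw1 2.75, SE 0.90, adjusted p = 0.320 by edgeR, 0.0417 by DESeq2, which called 3.33% of all genes), and these sums at 0w held 10 and 6 cells. With the replicate number as a block 95, 50 and 57 genes were called in the 3 contrasts, against 11, 0 and 7 without it, and again 0 factors. Within duct-like cells 0 factors were called, where 0% of all 11249 genes were in each of the 3 contrasts, and 0 had an unadjusted p below 0.05, beside 5.33, 8.53 and 6.39% of all genes.

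Whether a class changed over time by a different amount than another was tested with a term of class by time point. For Zfp750 the change at 1w pw1 in duct-like cells minus that in basal-like cells was -4.66 (log2, SE 0.88, unadjusted p = 0.000379, adjusted p = 0.139 by edgeR, 0.000341 by DESeq2), and at 1w pw2 it was -4.19 (SE 0.87, adjusted p = 0.567 by edgeR, 0.00535 by DESeq2). For differentiated-like minus basal-like cells it was -2.81 (SE 0.95, adjusted p = 0.573). The differentiated-like class had 1 plate at 8w pw1, so that test is not used. By edgeR 0 of 10 factors passed for that class at 1w pw1 or 1w pw2, where 0% of all 9123 genes did. For the duct-like class 0 of 10 passed in any contrast. Of 9930 genes for that class 0.0201% passed at 1w pw1, 0.0101% at 1w pw2 and 0% at 8w pw1. DESeq2 called 2.4% of these genes at 1w pw1 and 0.947% at 1w pw2. A difference between classes in the time course of Zfp750 therefore rests on the DESeq2 test.

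Other genes of these pathways were read from lists written by hand. Of 30 other transcription factors of the epidermis and follicle, 28 were tested on plates. In any contrast 0 were called, where at most 0.527% of all genes were. The 2 with the largest difference at 1w pw1 against 0w were Satb1, a chromatin organiser with 0 counts in both 0w plates and 6.73 and 2.87 CPM at 1w pw1 (adjusted p = 0.0885 by edgeR, no fold given), and Fosl1, an AP-1 subunit at 0.104 and 0 CPM at 0w (under the level of 3 counts) and 1.76 and 1.29 CPM at 1w pw1 (adjusted p = 0.235 by edgeR, no fold given). The median of the list at 1w pw1 was 0.40 against -0.04 for all genes. Between differentiated-like and basal-like cells, 17 of the 25 that are not class markers were tested, and Klf3 (log2 fold change 1.88, SE 0.34) and Klf4 (1.37, SE 0.32), Krüppel-like factors of the suprabasal layers, were higher and 0 were lower, where 1.01% of all genes were higher and 1.4% lower. In duct-like cells 7 of 19 were called, where 10.1% of all genes were, with Prdm1, Ehf, Pou2f3, Cebpb and Klf3 higher and Maf and Myc lower than in basal-like cells. Prdm1, a repressor of the sebaceous gland and upper epidermis (4.33, SE 1.16), and Ehf, an ETS factor of epithelia (3.29, SE 0.49), had the largest differences among those higher. Maf was the 1 of 18 called between differentiated-like and duct-like cells, higher in the former, where 2.26% of all genes were called.

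Of 8 genes known as targets of grainyhead-like factors, 0 were called on plates, where at most 0.527% of all genes were in any contrast. The list median against 0w was 1.34 (1w pw1) and 2.02 (1w pw2), beside -0.04 and 0.05 for all genes. Tgm1, the transglutaminase of the cornified envelope, had the largest of these (3.29, SE 1.12, adjusted p = 0.258, and 4.53, SE 1.17, adjusted p = 0.175 by edgeR). In the class comparison 2 of 5 tested were higher in differentiated-like cells, Dsg1b, a desmosomal cadherin (2.22, SE 0.39), and Rab25, a trafficking GTPase (2.52, SE 0.45), and the list median was 2.22 against -0.14 for all genes, of which 1.01% were higher. In duct-like cells 5 of 7 were higher, where 5.68% of all genes were, Cldn4, Dsg1b, Esrp1, Rab25 and Tgm1, with a list median of 2.16 against 0.01. Cldn4, a tight junction claudin (6.01, SE 0.97), and Tgm1 (5.42, SE 1.49) had the largest differences.

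Of 14 genes known as targets of p63, 0 were called on plates, where at most 0.527% of all genes were in any contrast. Their median against 0w was -0.98 (1w pw1), 0.25 (8w pw1) and -0.11 (1w pw2), beside -0.04, 0.07 and 0.05 for all genes. Satb1 and Fras1 had the largest differences at 1w pw1. Fras1, a basement membrane protein, stood at 0.156 and 0 CPM at 0w and at 0.915 and 11.3 CPM at 1w pw1 (adjusted p = 0.187 by edgeR, no fold given). Of the 8 that are not class markers, Perp, a desmosome component (1.56, SE 0.22), was higher in differentiated-like cells, where 1.01% of all genes were. Cdh3, the P-cadherin of basal and follicle cells, was lower in duct-like cells (-5.60, SE 0.82), where 4.45% of all genes were. Of 13 late differentiation genes, Casp14, the caspase of cornification (4.08, SE 0.69), and Sprr1b, a cornified envelope precursor (11.05, SE 1.34), were higher at 1w pw1, where 0.404% of all genes were. Sprr1b stood at 0 and 0.432 CPM at 0w and at 434 and 503 CPM at 1w pw1. It was higher at 1w pw2 too (10.66, SE 1.32), where 0.238% of all genes were. At 8w pw1 against 0w 0 of the list were called, where 0% of all genes were. Between 1w pw1 and 8w pw1 Sprr1b was lower at the later time (-9.36, SE 1.24), where 0.0722% of all genes were. Casp14 (5.11, SE 1.03) and the protease gene Klk7 were higher in differentiated-like than in basal-like cells, 2 of 6 tested (1.01% of all genes). The median of Klk7 in basal-like cells, 0.284 CPM, was too low for a fold, so none is given. Klk7, Cdsn, Tgm1 and Ivl were higher in duct-like cells, 4 of 6 (5.68% of all genes).

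Likeness of pattern was measured as Pearson's r of log2 CPM over the 34 sums by plate and class, which share plates and depth, and is a description. Among the 10 factors, Grhl3 and Ovol1 were most alike (r = 0.76), then Grhl1 and Zfp750 (0.70) and Ovol1 and Tfap2c (0.69), and Tfap2a and Tfap2c were least alike (-0.57). Over at least 4543 genes with an average log2 CPM of at least 4, Ywhaz was among the nearest to Klf5 (0.82). The nearest to Grhl3 were Abca12 (0.83), the lipid transporter of lamellar granules, and Cast (0.82), and the nearest to Ovol1 were Elovl4 (0.83), which makes very long fatty acids, and Serpinb3b (0.79).

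Zfp750 was nearest to Serpinb3b (0.81) and Atp6v0b (0.80), and Grhl1 to S100a14 (0.76) and Ormdl2 (0.75). Trp63 was nearest to Ncbp2 (0.74) and Wdr12 (0.68), Tfap2c to Sppl3 (0.73) and Tom1l1 (0.72), and Gata3 to Ampd3 (0.64) and Gjb2 (0.63). Grhl2 (Arhgdia, 0.62, and Pdcd6ip, 0.60) and Tfap2a (Gng5, 0.60, and Tmem19, 0.57) had the weakest neighbours.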

How the data were processed

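Single sorted keratinocytes were sequenced with Smart-seq2, which has no molecular identifiers. The authors deposited 1 table of estimated counts, expected counts per gene and cell from Salmon 0.13.1 against Ensembl transcripts of GRCm38 (release as in the study's methods), not normalised. The step from transcripts to genes is not given in the sources used here. The fewest genes in a deposited cell numbered 1001 and the highest mitochondrial share was 49.4%, inside the authors' filter of 1000 genes and 50%. Table columns without a sample numbered 0. No doublet caller was run, since each well held 1 sorted cell.

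Counts were summed per plate, or per plate and cell class (at least 5 cells), and rounded. Tests were edgeR 4.0.16 quasi-likelihood fits in R 4.3.3 with TMM scaling, filterByExpr and Benjamini-Hochberg adjustment over all genes tested. Time contrasts used all 8 plates (4 residual degrees of freedom, biological coefficient of variation 0.61), and class contrasts used the plate as a block. Deviations from the group mean of plates with the same replicate number correlated at 0.121 to 0.213 in each of 12 pairs. Since groups have 2 plates, these are 6 distinct values, and plates with unlike numbers gave their mirror image (-0.213 to -0.121). The 6 values share the same plates, so this check cannot establish that the numbers pair the plates. The labels give no pairing either, and fits with the number as a block were run beside the main ones. A gene was called at an adjusted p below 0.05 and a fold above 2. Classes came from the mean z-score of log2(CPM + 1) over fixed marker lists. The fits were tested on simulated data, and the outcome is not given here. Alternatives were DESeq2 1.42.0, no filter, blocks, equal weight per cell, stricter cells, other class cuts, thinning and leaving out each plate. All 10 factors are named. Of the other lists every called gene or the 2 with the largest change are named, and for each factor the 2 genes nearest in pattern. Some results that these rules name are not reported here. Members and lists were chosen with earlier results of these data known. Gene positions and lengths are from GENCODE on GRCm38, matched by symbol.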

Additional observations from a re-analysis of the deposited data

Results flagged for a closer look

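Differentiated-like and duct-like cells were each set beside basal-like cells, and in 5 cases both plates of a time point moved opposite ways relative to 0w. Sebaceous-like and bulge-like cells are not covered here. Values are the change in the named class minus that in basal-like cells, on the log2 scale. By edgeR's quasi-likelihood test of class by time point with Benjamini-Hochberg adjustment, 0 of these 5 passed. Grhl1 at 1w pw1 was lower than at 0w in both differentiated-like sums and higher in both basal-like sums, a difference of -2.51 (adjusted p = 0.608). Grhl3 at 1w pw1 differed by -2.81 between duct-like and basal-like cells (adjusted p = 0.795). Klf5 at 1w pw2 differed by -2.19 between these classes (adjusted p = 0.960). Tfap2a differed by -0.90 at 1w pw1 (adjusted p = 0.891) and by -0.95 at 1w pw2 (adjusted p = 0.995). In each case the basal-like sums after the wound were the higher ones, and they held 6 to 15 cells each.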

How the results depend on the processing

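With 2 plates per time point and 1 cell holding up to 58.8% of a factor's counts in a plate, precision is limited. Against 0w, DESeq2 called 1 factor (1w pw1) and 2 factors (1w pw2). It also called 4 between differentiated-like and basal-like cells (Grhl1, Ovol1, Tfap2c and Zfp750), 1 each in the sebaceous-like (Klf5) and bulge-like (Gata3) contrasts, 2 between differentiated-like and duct-like cells, 1 for each duct-like by time contrast at 1w pw1 and 1w pw2 (Zfp750), 1 within basal-like cells in 2 contrasts (Zfp750) and 1 within differentiated-like cells (Gata3). Without the deepest cell of replicate 2 of 8w pw1, chosen after seeing the data, 0 factors were called in any time contrast.

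Between differentiated-like and basal-like cells the main count of 1 became 2 with no filter, 3 with every cell scaled equally, 2 with no plate block (no replicate block), 6 and 4 with classes cut at the ends of the marker or keratin difference, and 0 with thinned cells, and 0 to 2 without a plate. The marker cut called Grhl1, Grhl3, Klf5, Ovol1, Trp63 and Zfp750, and the keratin cut called Grhl1, Grhl3, Ovol1 and Zfp750. Equal scaling called Grhl1, Trp63 and Zfp750. Over all genes the calls moved too, from 220 of 9123 to 463 of 15564 (no filter), 295 of 9123 (no plate block), 275 of 8625 (equal scaling), 1013 of 9662 and 837 of 9790 (the marker and keratin cuts) and 130 of 6188 (thinned). Within basal-like cells the count of 1 became 0 with every cell scaled equally, 0 with a clear class margin, 0 and 0 with the other class cuts (these 3 added after seeing the data), and 0 to 1 without a plate. At 1w pw1 against 0w the calls over all genes there were 72 of 11904, and then 75 of 11669 (equal scaling), 79 of 11203 (clear margin), 11 of 13255 and 32 of 12007 (marker and keratin cuts) and 19 to 124 without a plate. Duct-like against basal-like cells, where 5 were called, gave 6 by DESeq2 (Gata3 added), 4 with every cell scaled equally (Ovol1 lost) and 3 to 5 without a plate, beside 1006 of 9930 genes in all, 2072 of 9930, 1029 of 9720 and 712 to 924. The cause of these moves was not tested.

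Direction reversed for Gata3 between differentiated-like and basal-like cells (-1.44 by the marker cut, -0.19 by the keratin cut), for Tfap2a (-0.019 by DESeq2, -0.093 with equal scaling, -0.12 by the keratin cut, -0.070 thinned, -0.088 to 0.18 without a plate), and for Zfp750 within differentiated-like cells at 1w pw2 (-0.74 and -0.20 by the marker and keratin cuts). Of the other log2 fold changes tried, 494 kept direction and side, 25 gained and 24 lost a call.

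The replicate number as a block left 0 factors called in the 7 time contrasts and 1 within basal-like cells (Zfp750), and changed no other call of a factor over time.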
